A study of Danio rerio with 2 samples.

Results

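Unconventional myosins of the hair bundle and of epithelia were described in zebrafish cells sorted by a GFP transgene of hair cells (HCs). They were 15 genes among the 17668 genes with a deposited value. The genes were chosen by name. A gene was taken when its deposited symbol, or its symbol in the table that pairs Ensembl identifiers with names, was MYO15A, MYO7A, MYO6, MYO3A, MYO3B, MYO1C, MYO1H, MYO5B or MYO10, with or without a final a or b. A further gene, ENSDARG00000061937, was taken because the study's supplementary data pair it with human MYO7A. All 9 symbols had at least 1 gene, and 6 of them had a pair. The naming rule itself uses no measured value, although the symbols were picked with earlier results of these data known. The copy of the supplementary data at hand holds only genes with high ratios, so that ENSDARG00000061937 could enter only as a gene higher in GFP(+) cells.

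The GFP(+) library was made from cells sorted from ppv3b:GFP larvae at 5 dpf, and the GFP(−) library from the cells of the same transgenic line and age that lacked the signal. Both populations come from the whole larva and carry the transgene, which is expressed predominantly, but not solely, in the HCs of ear and lateral line. There was 1 library per population, so that no difference given here has a replicate error or a test. Values are normalized reads per gene, that is, read counts after quantile normalization with a floor of 20. In bulk libraries such as these, fewer cells of a type and less RNA per cell cannot be told apart.

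Myosins are motors that move along actin filaments, with a head that binds actin and splits ATP, a neck that binds light chains, and a tail that binds cargo or membrane. The hair bundle is built of stereocilia, which are stiff protrusions filled with actin, and unconventional myosins carry proteins to their tips, hold the tip links under tension and anchor the membrane at their base. In zebrafish, as in mouse and human, mutations in genes of myosin VI and VIIA disturb the hair bundle and hearing or balance. Other members of the family, such as MYO5B and MYO10, are known best for vesicle traffic and for filopodia in epithelial and other cells.

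The GFP(+) library carried HC markers, and markers of superficial epidermis at a far higher summed level. For comparison, 8385 of all 17668 genes were higher in GFP(+) cells and 9260 lower. At least 3-fold higher were 16.9% of all genes, and at least 3-fold lower 16.4%. Of the 17 symbols in a list of HC markers, 14 matched 20 genes. GFP(+) cells had at least 3 times the GFP(−) value for 18 of these, and the log2 of the GFP(+) to GFP(−) ratio had a median of 4.25 over the list. The summed level of the list was 37628.5 normalized reads in the GFP(+) library, against 1811 in the GFP(−) library. The exceptions were cabp2a and GFI1B, a separate gene that entered only through its final b. All 10 matched markers of superficial epidermis, which covers the larva, also passed 3-fold, with a median log2 ratio of 4.57. Their summed level was 1695525.5 normalized reads in the GFP(+) library, against 122247.5 in the GFP(−) library. To these sums krt4 alone gave 978726 and 73615. Of the 10, epcam is not confined to epidermis, since the study sorted mouse HCs as cells positive for its protein, CD326. The part of these epidermal markers in the myosin values below was not tested. All 8 genes of the enterocyte list, which marks absorptive cells of the gut, and all 8 of the endothelial list were lower in GFP(+) cells, with sums of 286 against 2664.5 and of 424 against 3119.5 normalized reads. Of the neuronal genes, 9 of 10 were lower, and the sums were 697.5 and 6011.5 normalized reads in GFP(+) and GFP(−) cells. Of the genes of photoreceptors, retinal pigment epithelium and pigment cells, 15 of 16 were lower by the deposited values, with sums of 1050 and 28624. GFP(+) values of up to 48 are not taken as measurements, for the reason given below. They made up 6 of the enterocyte, 4 of the endothelial, 3 of the neuronal and 7 of these 16 values. With them set to 48, 5, 8, 8 and 8 genes were at least 3-fold lower, beside 14.6% of all genes. For rlbp1b and RPE65 ENSDARG00000094752, both values lay below 48, so their direction is not known. Of the 6 ionocyte genes, 5 were higher and 1 of them passed 3-fold, while ca2 alone was lower, and the sums were 3745.5 and 3720.5. Of the 10 genes of skeletal muscle, 2 were at least 3-fold higher and 2 at least 3-fold lower, with sums of 3227 and 2587.5. In these sums, the single gene myhz2 gave 1458.5 and 287. The 3-fold counts of the muscle list, like the higher count of the ionocyte list, were near the shares over all genes. In the supporting cell list, 9 symbols matched 14 genes, and several of these, also among the higher ones, matched the single symbol FNDC7. The 14 genes were mixed, with 5 at least 3-fold higher and 4 at least 3-fold lower, and sums of 100369.5 and 21332. Of these sums, cldnb alone gave 85285 and 9774.5, so they say little about the rest of the list. In none of these lists was a gene at 0, because the floor is 20. In GFP(+) cells, 4 of the enterocyte genes stood at that floor, among them CDHR5 and a set of ANPEP genes.

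As a set, the myosins were higher in GFP(+) cells. Of the 15 genes, 12 were higher and 3 lower, beside 8385 higher and 9260 lower of all 17668 genes. At least 3-fold higher were 8 of the 15, against 16.9% of all genes, and at least 3-fold lower was 1, against 16.4% of all genes. The median log2 ratio was 2.03, with quartiles of 0.32 and 2.84, beside a median of −0.10 and quartiles of −1.03 and 1.01 over all 17668 genes. These values describe symbols picked with earlier results known, and ENSDARG00000061937, 1 of the 8, could enter only as a higher gene. With names from the identifier table only, which leaves out that gene and ENSDARG00000070174, 7 of 13 were at least 3-fold higher and the median was 2.03. The summed level of the 15 genes was 13261.5 normalized reads in the GFP(+) library, against 6582.5 in the GFP(−) library, 2.01-fold higher. The highest GFP(−) values of the set were those of MYO1C, the MYO10 pair, the MYO6 gene ENSDARG00000044016 and MYO3A, and none of these genes passed 3-fold in either direction. In GFP(+) cells the values ran from 67.5 to 1740 with a median of 1017.5, and 13 of the 15 lay above the library median of 186. In GFP(−) cells they ran from 35.5 to 1952 with a median of 170.5, and 7 of the 15 lay above the same library median. None of the 15 stood at the floor in either library. The highest GFP(+) value, 1740, was that of ENSDARG00000070174, whose name is in doubt, as given below. This gene is also part of both sums.

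**Figure D1:**
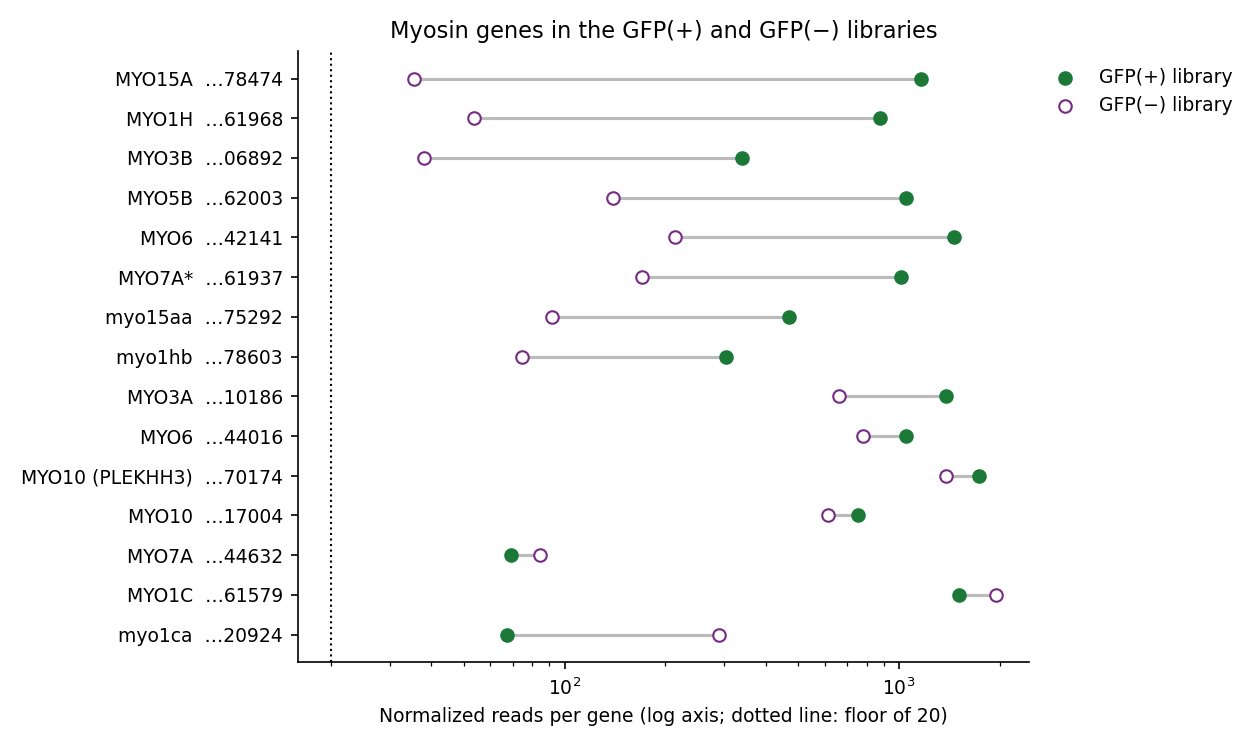
Normalized reads per gene (log axis) of the 15 myosin genes in the GFP(+) library (filled green) and the GFP(−) library (open purple), ordered by ratio from the highest at the top, with the last 5 digits of each Ensembl identifier and 1 library per population. MYO7A* is ENSDARG00000061937, named only in the supplementary data. The top 8 genes are at least 3-fold higher in GFP(+) cells, and myo1ca at the bottom is the gene that is at least 3-fold lower.

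**Figure D2:**
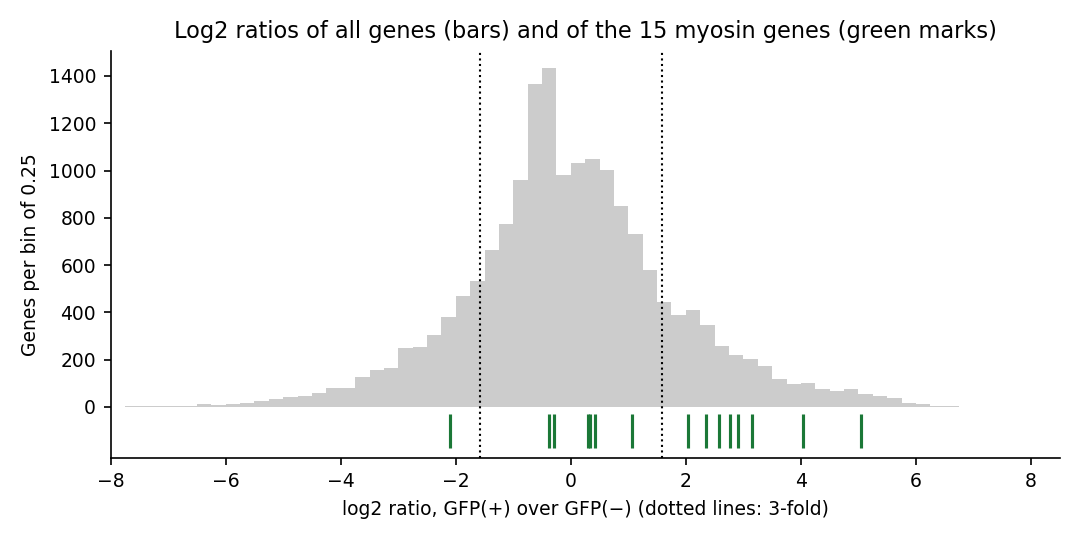
Distribution of the log2 ratio of GFP(+) to GFP(−) expression over all genes (grey bars, genes per bin of 0.25) with the 15 myosin genes as green marks under the axis. Dotted lines mark 3-fold, and 8 marks lie beyond the upper line and 1 beyond the lower line.

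MYO15A, the motor that carries whirlin and EPS8 to the tips of stereocilia in the mouse, had the highest ratio of the set. The gene ENSDARG00000078474 had 1166 normalized reads in the GFP(+) library, against 35.5 in the GFP(−) library, a 32.8-fold difference (log2 ratio 5.04). Its rank among the 17668 genes, counted from the highest value, was 2202 in GFP(+) cells and 15800 in GFP(−) cells. The co-orthologue myo15aa (ENSDARG00000075292) had 469 normalized reads in the GFP(+) library, against 92 in the GFP(−) library, 5.10-fold higher. Both co-orthologues were thus higher in GFP(+) cells, but to unequal degrees, and their log2 ratios differed by 2.69. ENSDARG00000078474 held 71.3% of the summed reads of the pair in GFP(+) cells and 27.8% in GFP(−) cells, where myo15aa held the larger part. The summed level of the pair was 12.8-fold higher.

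MYO7A works with harmonin, sans and cadherin 23 at the upper end of the tip link. The gap between the log2 ratios of its genes was 2.87, which is partly fixed by the choice of genes, since ENSDARG00000061937 was admitted through a list of high ratios. ENSDARG00000061937 had 1017.5 normalized reads in the GFP(+) library, against 170.5 in the GFP(−) library, 5.97-fold higher. ENSDARG00000044632, which the identifier table names MYO7A, had 69 normalized reads in the GFP(+) library, against 84.5 in the GFP(−) library. It was 1.22-fold lower, a small difference between low values, and its rank was 13011 in GFP(+) cells and 12249 in GFP(−) cells. ENSDARG00000061937 made up 93.6% of the summed reads of the pair in GFP(+) cells and 66.9% in GFP(−) cells. It was therefore the main MYO7A gene of both libraries by reads, without allowance for gene length, which was not known for the gene models counted. With both genes summed, MYO7A was 4.26-fold higher.

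MYO6 moves towards the minus end of actin filaments, unlike the other myosins, and anchors the membrane at the base of stereocilia. ENSDARG00000042141 had 1463 normalized reads in the GFP(+) library, against 214.5 in the GFP(−) library, a 6.82-fold difference. The second MYO6 gene, ENSDARG00000044016, had 1049 normalized reads in the GFP(+) library, against 780 in the GFP(−) library, 1.34-fold higher. The pair had values of the same order in GFP(+) cells, and it was in GFP(−) cells that they lay apart. ENSDARG00000042141 held 58.2% of the summed reads of the pair in GFP(+) cells and 21.6% in GFP(−) cells. Their log2 ratios differed by 2.34, and summed, MYO6 was 2.53-fold higher. The names at hand do not say which of these genes is myo6a and which is myo6b.

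The class III myosins carry espin and its relative ESPNL towards the tips of stereocilia, and have a kinase domain in front of the motor. MYO3B (ENSDARG00000006892) had 339 normalized reads in the GFP(+) library, against 38 in the GFP(−) library, 8.92-fold higher. MYO3A (ENSDARG00000010186) had 1386 normalized reads in the GFP(+) library, against 661 in the GFP(−) library, 2.10-fold higher and short of 3-fold. Its rank was 1865 in GFP(+) cells and 3776 in GFP(−) cells. The MYO3B value in GFP(−) cells and the MYO15A value of 35.5 were the only GFP(−) values of the 15 genes at or below 48.

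The class I myosins of the set went in both directions. MYO1H, a short-tailed motor whose role in zebrafish HCs is not described here, had the second highest ratio of the 15 genes. ENSDARG00000061968 had 880.5 normalized reads in the GFP(+) library, against 53.5 in the GFP(−) library, a 16.5-fold difference (log2 ratio 4.04). Its co-orthologue myo1hb (ENSDARG00000078603) had 304 normalized reads in the GFP(+) library, against 74.5 in the GFP(−) library, 4.08-fold higher. ENSDARG00000061968 held 74.3% of the summed reads of the pair in GFP(+) cells and 41.8% in GFP(−) cells. The log2 ratios differed by 2.01. Summed, MYO1H was 9.25-fold higher.

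MYO1C links membranes to actin, and has been proposed as a motor of slow adaptation in HCs of the frog and mouse. In these libraries neither of its genes was higher in GFP(+) cells. MYO1C (ENSDARG00000061579) had 1507 normalized reads in the GFP(+) library, against 1952 in the GFP(−) library, 1.30-fold lower, and was an abundant gene in both libraries, with the ranks 1710 and 1317. The co-orthologue myo1ca (ENSDARG00000020924) had 67.5 normalized reads in the GFP(+) library, against 289.5 in the GFP(−) library, 4.29-fold lower (log2 ratio −2.10), and was the gene of the 15 that was at least 3-fold lower. The larger gene therefore held 95.7% of the summed reads of the pair in GFP(+) cells and 87.1% in GFP(−) cells. The summed pair was 1.42-fold lower.

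MYO5B moves recycling endosomes with RAB11 under the apical surface of epithelial cells. MYO5B (ENSDARG00000062003, deposited as MYO5B (2 of 2)) had 1048.5 normalized reads in the GFP(+) library, against 139.5 in the GFP(−) library, 7.52-fold higher. The supplementary data pair a further gene, ENSDARG00000093553, with human MYO5B. This gene is not among the 15 and, because the copy at hand holds only high ratios, could not have entered with a low one. It had 322 normalized reads in the GFP(+) library, against 38.5 in the GFP(−) library, 8.36-fold higher, and summed with the first gene the difference was 7.70-fold. MYO5B, like MYO6, MYO7A and MYO1C, is also used in epithelia outside the ear.

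MYO10, the motor of filopodia, was the symbol whose genes differed least between the libraries. MYO10 (ENSDARG00000017004) had 755.5 normalized reads in the GFP(+) library, against 613.5 in the GFP(−) library, 1.23-fold higher. ENSDARG00000070174, deposited as MYO10 (2 of 2), had 1740 normalized reads in the GFP(+) library, against 1384 in the GFP(−) library, 1.26-fold higher. The log2 ratios of the pair differed by 0.03, and the share of ENSDARG00000070174 in the pair was 69.7% in GFP(+) cells and 69.3% in GFP(−) cells. The sources disagree on the name of the second gene, since the identifier table calls it PLEKHH3. The protein of that name shares MyTH4 and FERM domains with the tail of MYO10 but has no motor, so that the place of this gene among the myosins is uncertain. Without it, 14 myosin genes remain, and the count of genes past 3-fold in either direction is not touched. The MYO10 pair and its gap of 0.03 would then fall away.

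**Figure D3:**
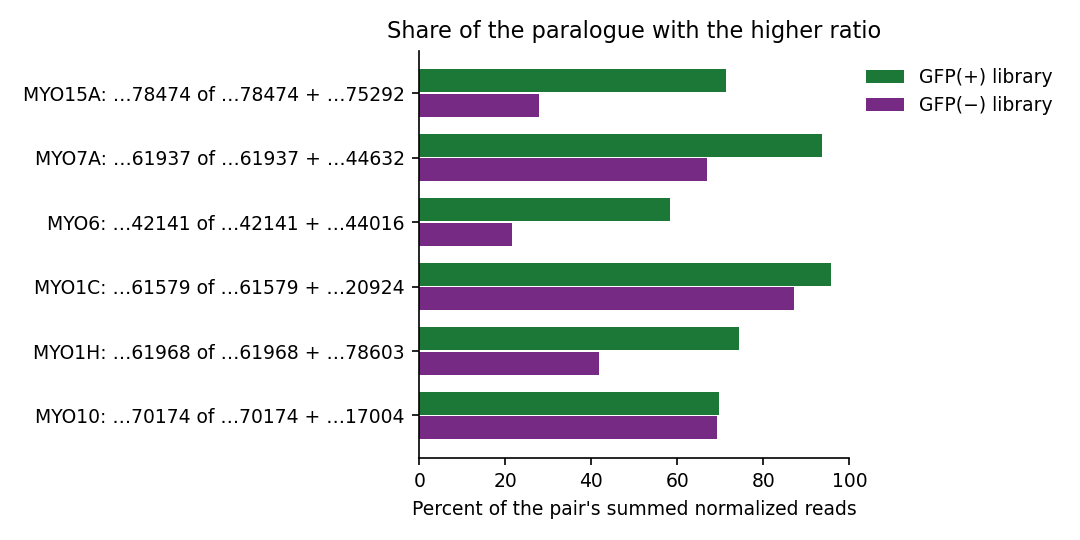
Share, in percent, of the paralogue with the higher ratio in the summed normalized reads of its pair, in the GFP(+) library (green) and the GFP(−) library (purple), for the 6 symbols with a pair, named by the last 5 digits of the identifiers. For MYO15A, MYO6 and MYO1H the share is above 50% in GFP(+) cells and below it in GFP(−) cells, for MYO7A and MYO1C it is above 50% in both, and for MYO10 the bars are nearly equal. Because the paralogue with the higher ratio was taken, its share is larger in GFP(+) cells in every pair by construction.

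Over the 6 pairs, the gap between the log2 ratios was 2.69 for MYO15A, 2.87 for MYO7A, 2.34 for MYO6, 2.01 for MYO1H, 1.73 for MYO1C and 0.03 for MYO10. In 2 pairs, MYO15A and MYO1H, both genes were at least 3-fold higher. In 2 others, MYO7A and MYO6, this held for 1 gene of the pair. In the MYO1C and MYO10 pairs it held for neither. The MYO10 pair includes ENSDARG00000070174, whose name is in doubt. How reads that fit both genes of a pair were handled is not given in the sources used here, and the values of close paralogues are uncertain to that extent.

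With 2 libraries, the pattern of a gene is no more than its pair of values. By distance between log2 values, the named genes most like MYO15A ENSDARG00000078474 were ANXA3, CYP2D6, rabgap1l2, si:dkeyp-86h10.3 and parp9. They had 1048 to 1227 normalized reads in GFP(+) cells and 35 to 38.5 in GFP(−) cells. None of them is on the HC marker list or on the list of superficial epidermis. The named genes most like myo1ca, the gene with the lowest ratio, were zgc:109965, dact3a, si:ch73-15n24.1, TGM1 and MSL2, with 64 to 70 normalized reads in GFP(+) cells and 291.5 to 309.5 in GFP(−) cells.

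The other unconventional myosins give the setting of these values. Of 19 further symbols, 16 matched 21 genes, with 11 higher and 10 lower in GFP(+) cells. That split was near the one over all 17668 genes, with 8385 higher and 9260 lower. Of the 21, 8 were at least 3-fold higher and 3 at least 3-fold lower, beside the 16.9% and 16.4% of all genes given above. By the deposited values the share at least 3-fold lower was near that of all genes. With GFP(+) values of up to 48 set to 48 it was 9.52%, beside 14.6% of all genes. The share at least 3-fold higher lay above that of all genes, as it did for the 15 genes. The median log2 ratio of the 21 genes was 0.14. Among all 36 unconventional myosin genes, 16 were at least 3-fold higher and 4 at least 3-fold lower by the deposited values, and MYO15A ENSDARG00000078474 and MYO1H ENSDARG00000061968 had the highest ratios. The next was a gene outside the set, MYO18A ENSDARG00000075752, a myosin linked to the Golgi, with 3852.5 normalized reads in the GFP(+) library, against 332.5 in the GFP(−) library, 11.6-fold higher. Its namesake ENSDARG00000061862 had 395.5 and 864.5, 2.19-fold lower, so that the gap within the MYO18A pair was 4.66 on the log2 scale. Among the genes outside the set, myo1eb (ENSDARG00000009133) and MYO19 (ENSDARG00000073761) came next, 9.17-fold and 6.44-fold higher. MYO19, which encodes a motor of mitochondria, had 196.5 normalized reads in the GFP(+) library, against a low value of 30.5 in the GFP(−) library.

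Toward the low end lay MYO1F and MYO1G, known from leukocytes, with GFP(+) values of 45.5 and 20. GFP(+) values above the floor and up to 48 were ordered exactly by the GFP(−) value of the gene over all 2731 genes in that range, so they are no measurement of their own, and a fold against them is given against 48 as a bound. By that bound MYO1F, with 340 normalized reads in GFP(−) cells, was at least 7.08-fold lower, and MYO1G, with 86, at least 1.79-fold lower. With GFP(+) values of up to 48 set to 48, 3 of the 36 genes were at least 3-fold lower, beside 14.6% of all genes. None of the 15 genes had a GFP(+) value in that range. The spread was widest in class I, where of 10 genes 4 were at least 3-fold higher and 4 at least 3-fold lower by the deposited values, or 3 by that bound. Over all genes, 16.9% were at least 3-fold higher and 16.4% at least 3-fold lower by the deposited values. All 3 class XV genes, among them myo15b with 622.5 normalized reads in the GFP(+) library, against 185.5 in the GFP(−) library, were at least 3-fold higher.

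**Figure D4:**
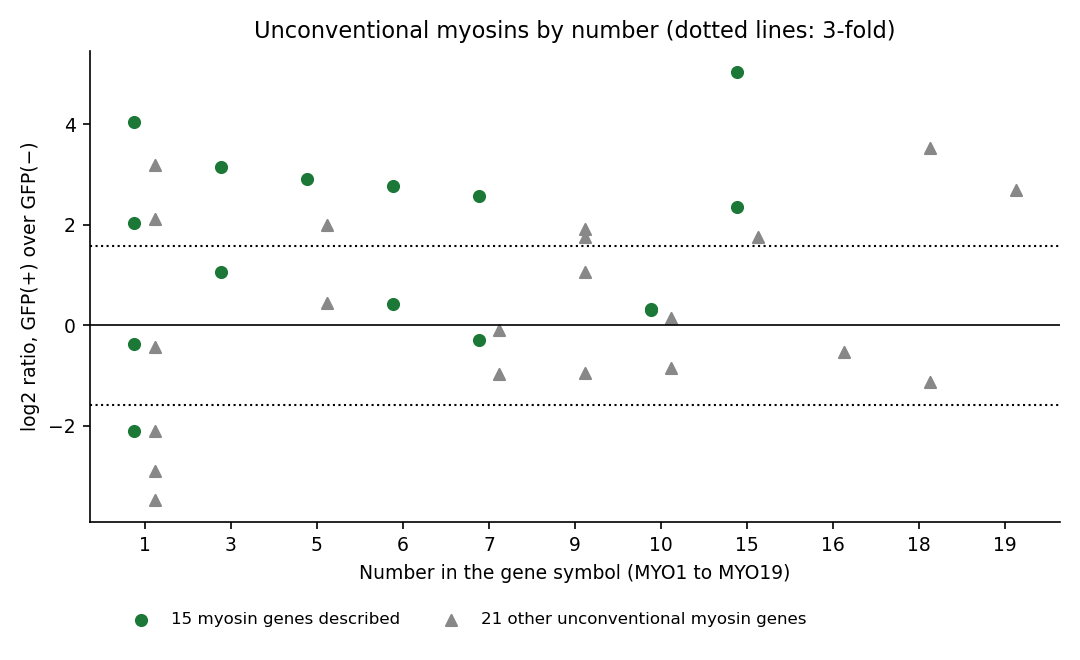
Log2 ratio of GFP(+) to GFP(−) expression of the 15 myosin genes described (green dots) and of 21 other unconventional myosin genes (grey triangles), by the number in the gene symbol. Dotted lines mark 3-fold, and the dots of the MYO10 pair overlap. Class I genes lie on both sides, and the 3 genes of number 15 all lie above the upper line.

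Partners of the myosins were read from lists of proteins known to bind them or to sit with them in the bundle, mostly from work in mouse. The counts past 3-fold in these lists stand beside the same 16.9% higher and 16.4% lower over all genes. Of 13 symbols for partners of MYO15A and the class III myosins, 11 matched 14 genes, with 5 at least 3-fold higher, a median log2 ratio of 0.60, and 2 at least 3-fold lower by the deposited values or 1 by the bound. The highest was eps8b (ENSDARG00000069011, deposited as EPS8L2 (2 of 2)), with 601.5 normalized reads in the GFP(+) library, against 21 in the GFP(−) library, 28.6-fold higher. Next came baiap2l2b, 26.4-fold higher, and ESPNL (ENSDARG00000078211), 17.9-fold higher. The sources disagree on the name of the last, which is deposited as ANKRD42. The other Eps8 genes were lower, EPS8 (ENSDARG00000018440) with 180 against 270.5 and EPS8L2 (ENSDARG00000058108) with 344 against 459 normalized reads. ESPN, an actin bundler and cargo of the class III myosins, was 3.33-fold higher, whereas WHRN, the cargo of MYO15A, had 158 normalized reads in the GFP(+) library, against 107 in the GFP(−) library, 1.48-fold higher. EPS8, EPS8L2, ESPN and WHRN were picked after their values were seen. The lowest were GNAI2 (ENSDARG00000017294), 5.56-fold lower, GNAI3 (ENSDARG00000030644), at least 2.84-fold lower, and GNAI2 (ENSDARG00000018174), 1.53-fold lower, which encode inhibitory G proteins.

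Of 12 symbols for partners of MYO7A, 9 matched 11 genes, with 5 at least 3-fold higher, 0 at least 3-fold lower and a median log2 ratio of 1.40. The highest were both TWF2 genes, which encode twinfilin-2, an actin-capping cargo of MYO7A. The gene ENSDARG00000009727 had 1736.5 normalized reads in the GFP(+) library, against 50.5 in the GFP(−) library, 34.4-fold higher. The other, ENSDARG00000094792, had 327.5 against a floor value, a difference of at least 16.4-fold. CDH23, the upper part of the tip link, had 160.5 normalized reads in the GFP(+) library against a floor value, a difference of at least 8.03-fold. Toward the low end, ANKS4B was 1.54-fold higher and ADGRV1 1.03-fold lower.

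For MYO6, MYO1C and the base of the bundle, 9 of 13 symbols matched 13 genes, with 6 at least 3-fold higher and 2 at least 3-fold lower, and a median log2 ratio of 1.57. GIPC3, an adaptor of MYO6, had 705.5 normalized reads in the GFP(+) library, against 29 in the GFP(−) library, 24.3-fold higher. The autophagy receptor calcoco2 was 37.1-fold higher, and ptprq, a membrane protein of the bundle base, 14.2-fold higher. The 2 lower genes both carry the name DAB2, an adaptor of MYO6 in endocytosis, in the identifier table. They stood at 319 against 1751 (ENSDARG00000053091) and 59 against 740.5 (ENSDARG00000031761) normalized reads in GFP(+) and GFP(−) cells. The first of them is deposited as BDP1 (2 of 2), so that its place among the partners is uncertain.

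For MYO5B and MYO10, 15 of 16 symbols matched 23 genes, with 4 at least 3-fold higher and 4 at least 3-fold lower, and a median log2 ratio of −0.25, so that both counts were near the shares over all genes. The 4 higher genes were rab25a, with 434 normalized reads in the GFP(+) library, rab25b, with 95.5, both against a floor value, and the pair rab11fip1a and rab11fip1b, with 3808 against 327 and 684.5 against 205.5. RAB25 and RAB11FIP1 are known from epithelia. RAB11A itself had 3675.5 normalized reads in the GFP(+) library, against 3253.5 in the GFP(−) library, 1.13-fold higher, and was picked after its value was seen. The lowest genes were ENSDARG00000022689 and ENSDARG00000071863, both named ITGB1, and RAB11FIP5, which was 4.01-fold lower. ITGB1, an integrin that MYO10 carries, had 48 normalized reads in the GFP(+) library, against 894 in the GFP(−) library for ENSDARG00000022689, at least 18.6-fold lower. For ENSDARG00000071863 the values were 281 and 1455.5. A further ITGB1 gene, ENSDARG00000053232, had 156 and 220.5, only 1.41-fold lower, and was picked after its value was seen.

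**Figure D5:**
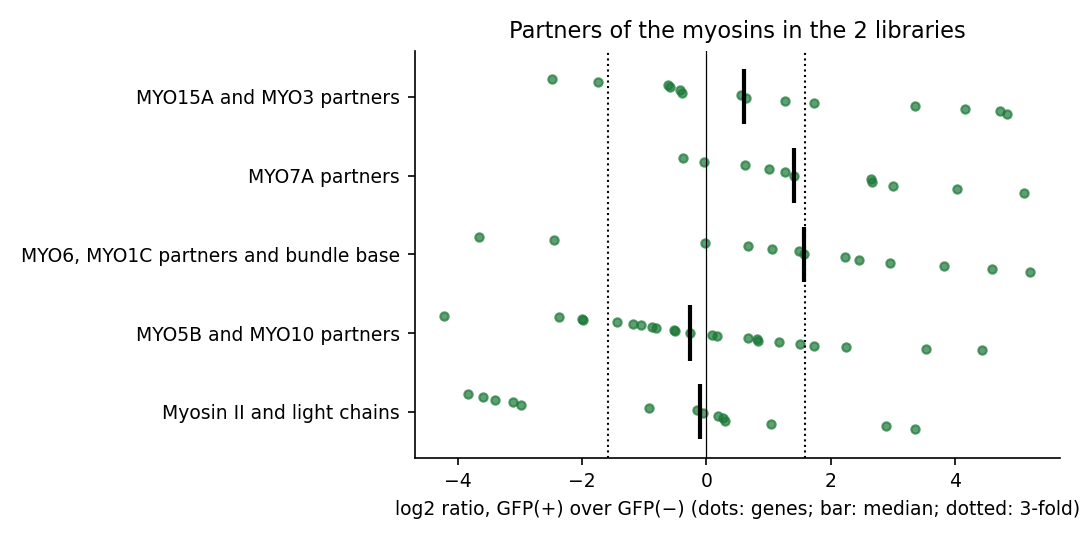
Log2 ratio of GFP(+) to GFP(−) expression for the genes of each partner list and of the list of myosin II and light chains, each dot a gene and each black bar the median of its list, with dotted lines at 3-fold. Medians run from 1.57 for the partners of MYO6 and MYO1C to −0.25 for those of MYO5B and MYO10, and each list has genes far from its median.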

How the data were processed

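RNA was sequenced from 1 library of GFP(+) and 1 library of GFP(−) cells of zebrafish larvae at 5 dpf. The authors aligned reads with TopHat to Zv9 and counted them with HTSeq on Ensembl genes (versions not given in the sources used here). The deposited values are a signal, read counts after quantile normalization with a floor of 20, and a minimum of 40 reads is named in the title of the table. Both columns sum to 19035170.5, so depth, and the precision it gives, is unknown. This normalization forces equal value distributions on both libraries and can therefore shift ratios.

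Ratios and log2 ratios were taken from the deposited values without a pseudocount, and no test was possible. Names came from an identifier table (14593 genes) and from deposited symbols. All genes found by the naming rule are named, as are up to 3 highest and 3 lowest genes of each other list and the 5 genes nearest to the highest and lowest myosin. Some genes that this rule would name are not reported here. The myosins, the lists and the alternatives were chosen with earlier results of these data known. The alternatives were a pseudocount of 20 or 100, values of up to 48 set to 48, a minimum mean of 100, centring, names from the identifier table only, and summed paralogues. The scripts were tested on simulated data. No genome coordinates or sequences were used here. Python 3.11.15, numpy 2.4.6, pandas 2.3.3 and matplotlib 3.10.9 were used.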

Additional observations from a re-analysis of the deposited data

How the results depend on the processing

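With 1 library per population and unknown depth, no value has an error, so the alternatives are given as values. No myosin gene changed direction under the alternatives that keep genes apart. The median log2 ratio of the myosins was 1.78 with a pseudocount of 20, 1.21 with 100, 2.19 with a minimum mean of 100, 2.13 when centred on the median of all genes, 2.09 with the genes of each symbol summed, and 2.19 with ENSDARG00000093553 added as MYO5B, which was chosen once the data had been seen. The count at least 3-fold higher was 9 of 16 with that gene, 6 with a pseudocount of 100, without myo15aa and myo1hb, and 5 of 9 symbols when summed, and 7 of 13 with names from the identifier table only. The count at least 3-fold lower was 0 with a pseudocount of 100 and 0 when summed. The 9 of 16 and 7 of 13 stand beside 16.9% of all genes. Shares over all genes were not computed with a pseudocount or with genes summed. Those counts therefore have no share to be read against. The gaps between the log2 ratios of the pairs under a pseudocount of 20 were 2.29 for MYO15A, 2.68 for MYO7A, 2.24 for MYO6, 1.45 for MYO1C and 1.84 for MYO1H. Under a pseudocount of 100 they were 1.66 for MYO15A, 2.17 for MYO7A, 1.93 for MYO6, 0.86 for MYO1C, 1.46 for MYO1H and 0.048 for MYO10. With values of up to 48 set to 48, the gap for MYO15A was 2.25. Over the alternatives the log2 ratio ran from 3.22 to 5.14 for MYO15A ENSDARG00000078474, from 2.68 to 4.14 for MYO1H ENSDARG00000061968 and from −2.10 to −1.22 for myo1ca, and the other myosins moved as well, with no change of sign. A pseudocount shrinks the ratios of low values by its construction. No paired analysis was possible because each population has 1 library.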

Other observations

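Conventional myosins and the light chains that unconventional myosins use were also read. Of 12 symbols, 10 matched 14 genes, with 2 at least 3-fold higher in GFP(+) cells, 5 at least 3-fold lower and a median log2 ratio of −0.10. Over all genes, 16.9% were at least 3-fold higher and 16.4% at least 3-fold lower, so the count of higher genes was near that share. The 2 higher genes were CALML4 (ENSDARG00000075800), a calmodulin-like light chain, with 495.5 normalized reads in the GFP(+) library, against 48.5 in the GFP(−) library (log2 ratio 3.35), and myh14 (ENSDARG00000073732), a myosin II of epithelia, with 2483.5 and 336.5, 7.38-fold higher. Lower were MYH11 (ENSDARG00000009782), the myosin of smooth muscle, 14.3-fold with 135 normalized reads in the GFP(+) library, against 1926.5 in the GFP(−) library, MYH10 (ENSDARG00000000103), with 509 against 4005.5, both MYL9 genes and myl6. The pair of MYH9 genes lay close to even, 1.24-fold higher (ENSDARG00000001014) and 1.11-fold lower (ENSDARG00000063295). The 5 calmodulin genes, which serve many proteins beside myosins, ran from 2.05-fold higher for calm1b to 1.89-fold lower for calm2a.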
